A study of Mus musculus with 18 samples.

Results

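Potassium channel genes were taken as every protein-coding gene whose GENCODE M21 symbol starts with Kcn, followed by letters and a number. The rule gave 92 genes among the 54281 of the table, and all 92 had a row with at least 1 count in some library. By symbol they fall into 30 voltage-gated pore-forming subunits (Kcna, Kcnb, Kcnc, Kcnd, Kcnq, Kcnh), 10 electrically silent modifiers (Kcnf, Kcng, Kcns, Kcnv), 15 inward rectifiers (Kcnj), 14 two-pore channels (Kcnk), 8 calcium- or sodium-activated channels (Kcnma, Kcnn, Kcnt, Kcnu) and 15 auxiliary subunits (Kcnab, Kcne, Kcnip, Kcnmb). The study sequenced RNA from 18 mouse libraries, 2 in each of 9 groups. Cerebral cortex of male C57BL/6J mice labelled Mcph1KO or WT was taken at E17.5 (before birth), at P4 (after birth) and at 2 later stages, A6w and A18w, together called adult here. A 9th group was R1 mouse embryonic stem cells (mESC), which exist here as WT only and are cultured cells, not tissue. The labels do not give the allele or how it was made, nor whether each library is a separate animal, so every p-value measures the spread between these libraries, which may be technical. Neurons, glia and vessels were homogenized together.

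Potassium channels let potassium ions leave the cell and so set its resting potential, end each action potential and limit how often a neuron fires. Voltage-gated subunits open on depolarization, calcium-activated ones on calcium entry, inward rectifiers hold the membrane near rest or answer G proteins and ATP, and two-pore channels carry a steady leak. Silent modifiers conduct only together with Kv2 subunits, and auxiliary subunits change the surface level or gating of a pore. In rodent cortex, neurons are known to gain large voltage-gated currents and a lower input resistance after birth.

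Library totals were 23531045 to 32041849 estimated counts, and Kcn genes took 4840 and 5918 of these counts in the mESC libraries and 39028 to 199921 in a cortex library. Levels are CPM, each count as a share of its library's total, scaled by trimmed mean of M values (TMM) over all 18 libraries. Mcph1 itself, the gene named in the genotype label, had 11.8 to 16.5 CPM in the 8 libraries labelled Mcph1KO, against 8.32 to 12.3 CPM in the 8 WT cortex libraries, so its gene-level count was not lower, and the genotype is written here as labelled. The cortex label was checked on neuron markers (Rbfox3, Snap25, Syt1, Slc17a7), whose summed level was 394 to 448 CPM at E17.5, 703 to 1277 CPM at P4, 6108 to 7012 CPM at A6w and 6122 to 6927 CPM at A18w. In mESC that sum was 3.47 and 12.8 CPM, while 5 pluripotency markers summed to 5111 and 5359 CPM. Markers of neighbouring tissues differed between cortex libraries. Choroid plexus markers (Ttr, Folr1, Clic6, Cldn2, Sostdc1, Kl) summed to 438 to 940 CPM in 3 of 4 E17.5 libraries and to 4.1 CPM in the other one, to 9.2, 86.7, 308 and 762 CPM at P4, and to 699 CPM in 1 of 4 A18w libraries, against 5.63 to 26.4 CPM in the other three. Thalamic markers (Tcf7l2, Lef1, Rorb, Prkcd) summed to 149 and 193 CPM in the E17.5 libraries numbered 2 and to 220 CPM in P4 WT replicate 1, against 58.3 to 82.4 CPM in the other cortex libraries. Tcf7l2 made up most of this difference, with 91.7 and 140 CPM in the E17.5 libraries numbered 2, against 7.74 and 9.3 CPM in those numbered 1, and 156 CPM in P4 WT replicate 1. Lef1 was also higher in the E17.5 libraries numbered 2, whereas Rorb and Prkcd were lower there than in those numbered 1. Hippocampal markers (Prox1, Zbtb20, Wfs1, Fibcd1) summed to 455 CPM in A6w WT replicate 1, against 194 to 278 CPM in the other A6w libraries. Striatal markers (Drd1, Drd2, Ppp1r1b, Adora2a) summed to 995 and 1292 CPM in the A18w libraries numbered 1, and to 255 and 380 CPM in those numbered 2. In bulk tissue, fewer cells of a type and less RNA per cell cannot be told apart.

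The 4 upstream sequences below stand for the 4 patterns the results turn on: the largest adult rise (Kcnj4), an astrocyte channel that rose with it (Kcnj10), the gene that led in stem cells (Kcnk5) and a channel that fell with age (Kcnh8). Each is the stretch just before the first annotated base of the gene, 5′ to 3′ on the gene's own strand, from RefSeq on GRCm38.p6, in lower case with every GC box (GGGCGG, or CCGCCC on the other strand) in capitals.
Kcnj4 (chr15:79505242-79505491, minus strand): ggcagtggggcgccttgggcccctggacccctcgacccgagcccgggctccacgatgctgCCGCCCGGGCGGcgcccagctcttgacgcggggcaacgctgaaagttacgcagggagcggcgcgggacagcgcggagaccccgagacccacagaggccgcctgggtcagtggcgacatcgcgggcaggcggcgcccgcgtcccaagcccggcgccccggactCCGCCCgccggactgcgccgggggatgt
Kcnj10 (chr1:172340960-172341209, plus strand): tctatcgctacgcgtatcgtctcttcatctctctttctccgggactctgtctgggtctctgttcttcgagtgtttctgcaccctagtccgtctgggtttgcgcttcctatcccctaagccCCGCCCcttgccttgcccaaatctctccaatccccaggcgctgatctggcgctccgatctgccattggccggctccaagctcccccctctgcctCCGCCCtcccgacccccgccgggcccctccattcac
Kcnk5 (chr14:20181810-20182032, minus strand): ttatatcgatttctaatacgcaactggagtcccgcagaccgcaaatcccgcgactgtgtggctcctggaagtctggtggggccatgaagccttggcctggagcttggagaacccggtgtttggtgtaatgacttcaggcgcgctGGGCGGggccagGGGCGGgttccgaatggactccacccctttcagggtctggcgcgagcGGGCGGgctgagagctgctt
Kcnh8 (chr17:52602459-52602708, plus strand): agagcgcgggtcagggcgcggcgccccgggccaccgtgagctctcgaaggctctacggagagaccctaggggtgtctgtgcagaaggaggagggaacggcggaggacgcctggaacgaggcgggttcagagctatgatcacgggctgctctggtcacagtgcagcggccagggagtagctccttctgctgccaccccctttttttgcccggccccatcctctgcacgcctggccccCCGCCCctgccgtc

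The windows of Kcnj4, Kcnj10 and Kcnh8 are 250 bases long, and that of Kcnk5 is 223 bases long. The windows of Kcnj4 and Kcnk5 hold 3 GC boxes each, that of Kcnj10 holds 2 and that of Kcnh8 holds 1, so both the genes that rose and those that fell carry it. RefSeq promoter entries matched 67 of the 92 genes (92 windows of 250 bases). The letters GGGCGG occurred on either strand in 44.6% of these windows (41), against 32.7% of all 32851 windows. A TATA box (TATAAA, either strand) occurred in 3.26% (3), against 12.4% of all windows, and the cAMP response element TGACGTCA in 0, against 1.55%. Median GC content was 58.6% in the Kcn windows, against 52.4% in all windows. These matches describe the letters only.

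Potassium channel RNA made up little of stem cell RNA and much more of adult cortex RNA. The summed level of all 92 genes was 228 ± 46.9 CPM in mESC (SD, n = 2), 1347 ± 65.8 CPM at E17.5, 2141 ± 299 CPM at P4, 6601 ± 918 CPM at A6w and 6269 ± 539 CPM at A18w (SD, n = 4 each). The ranges at E17.5 (1259 to 1399 CPM), P4 (1787 to 2408 CPM) and A6w (5251 to 7257 CPM) did not overlap, while A18w (5728 to 6862 CPM) lay within the A6w range. The makeup changed too. Two-pore channels held 48.3% of the Kcn sum in mESC, 9.86% at E17.5, 9% at P4, 5.53% at A6w and 5.81% at A18w. Auxiliary subunits held 6.23% in mESC, 10.8% at E17.5, 11.4% at P4, 16.7% at A6w and 20.1% at A18w, and inward rectifiers held 7.82%, 7.4%, 6.73%, 12.4% and 13.1% over the same order. Voltage-gated subunits held 26.7% in mESC and then the largest share of the 6 classes at each cortex stage, 56.8%, 54.8%, 49.6% and 47.3%. Per kilobase of exon, auxiliary subunits came closer to the voltage-gated ones, with 30.3% against 32.1% of the A18w sum.

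**Figure D1:**
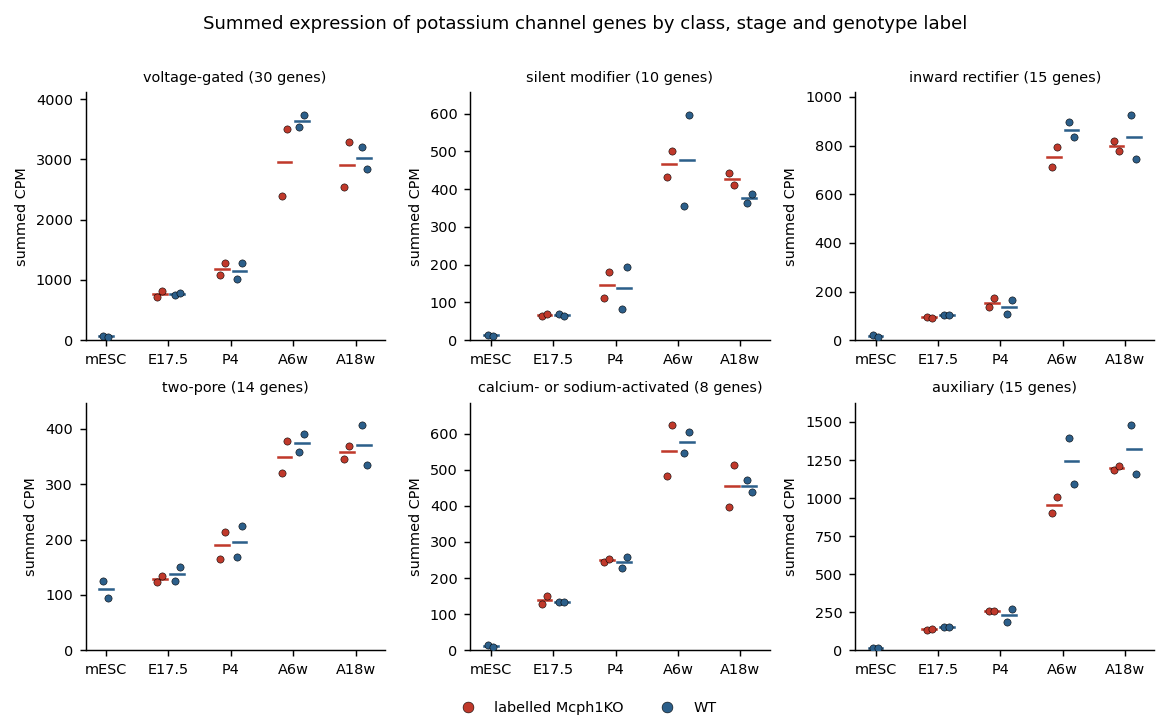
Summed CPM of the genes of each class (vertical axis, linear from 0) in every library, by stage from mESC to A18w, with libraries labelled Mcph1KO in red and WT in blue and short bars for the mean of 2 libraries. All 6 classes stand higher at A6w and A18w than at E17.5 and P4, and two-pore channels start from 110 CPM in mESC, closest of the 6 classes to their E17.5 sum of 133 CPM.

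Tested across all genes with edgeR, 81 of the 92 genes passed the filter on low counts in cortex. Between P4 and E17.5, 41 of the 81 rose and 3 fell at a Benjamini-Hochberg adjusted p under 0.05 over all genes, 44 in all, where 36.8% of the 19199 genes tested were called (18.9% higher, 17.9% lower). Between A6w and P4, 56 rose and 8 fell, 64 in all, against 55.1% of all genes (27.3% higher, 27.8% lower). Adult (A6w and A18w) over E17.5, 59 rose and 10 fell, against 69% of all genes called (33.5% higher, 35.5% lower). Log2 fold changes are given with their standard error (SE) throughout. The median log2 fold change of the 81 was 0.58, 1.33 and 2.0 in these comparisons, against 0.03, -0.06 and -0.04 over all genes. Of the genes that passed the filter, some could pass only because they are high at one stage, so these counts describe the tested genes and not all 92. The P4 count was 26 (32.1% of the 81, against 14.4% of all genes) without both E17.5 libraries numbered 1, an alternative added after the data were seen, and also 26 (32.1%, against 18.2% of all genes) when only WT libraries gave the contrast. It was 44 (against 36.2% of all genes) without both E17.5 libraries numbered 2, also added after the data were seen.

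**Figure D2:**
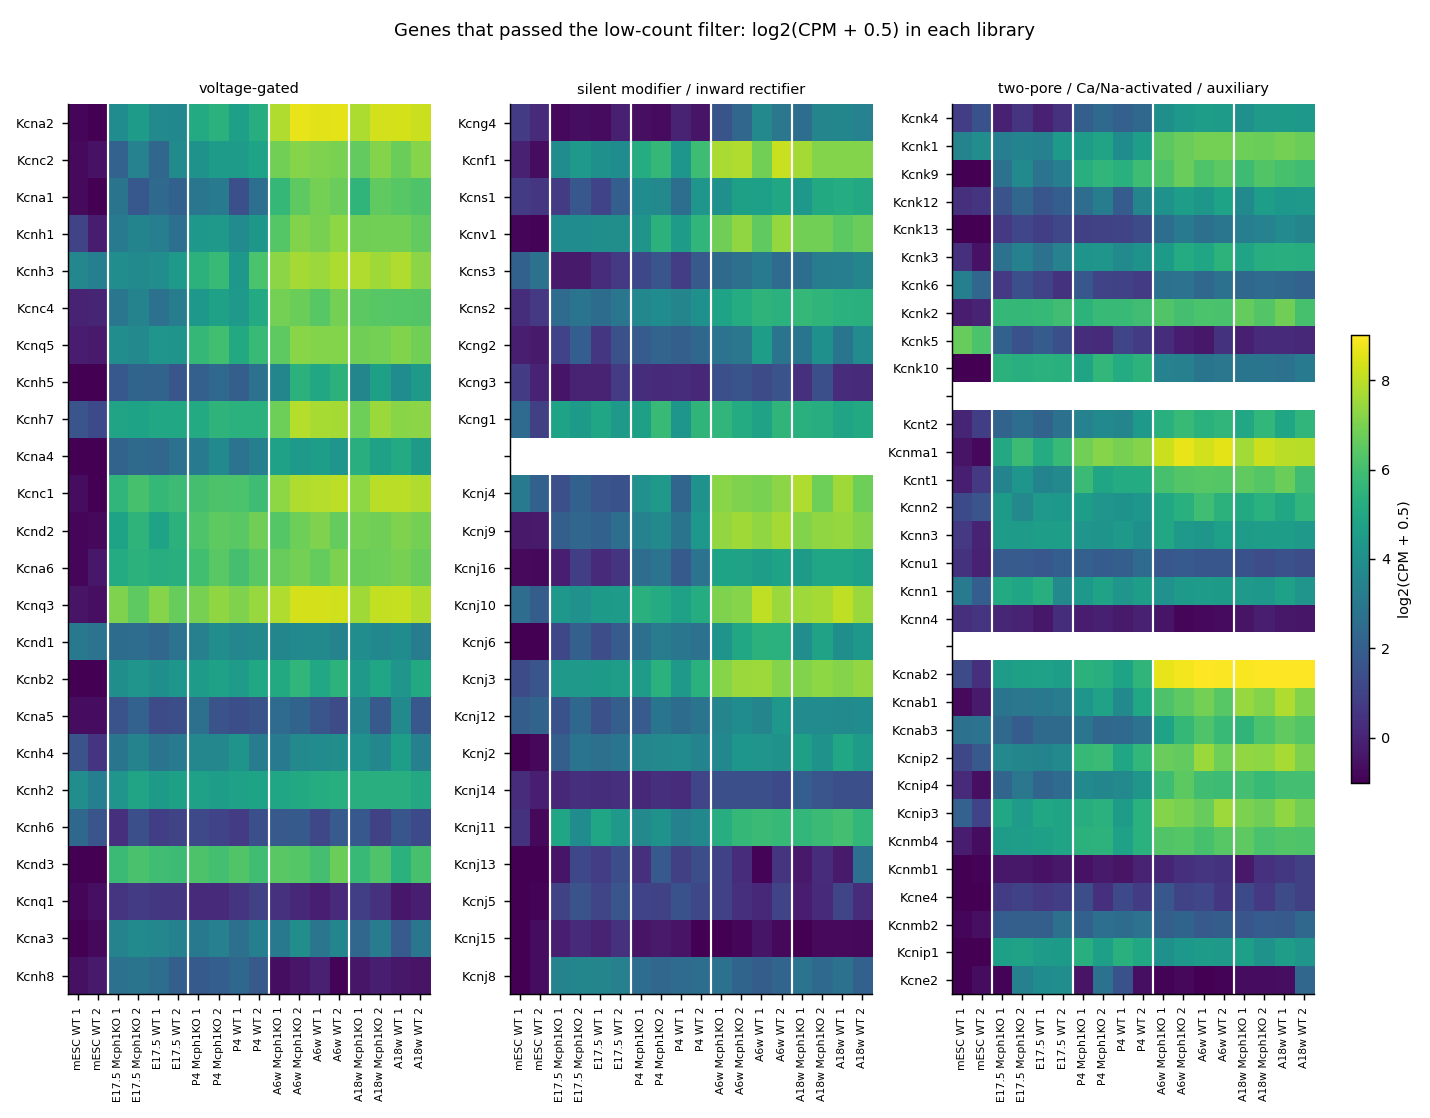
Colour gives log2(CPM + 0.5) for 77 of the 81 genes that passed the low-count filter in cortex, 1 row per gene within its class and 1 column per library from mESC to A18w, with libraries labelled Mcph1KO left of WT at each stage. Rows run from the largest adult-over-E17.5 difference at the top of each class to the most negative at the bottom, so the upper rows turn from dark to bright between P4 and A6w, while Kcnh8, Kcnk10, Kcnk5 and Kcne2 at the bottom turn darker.

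Among voltage-gated genes, Kcna2, Kcna1, Kcnc2, Kcnh1 and Kcnh3 had the 5 largest adult rises. Of 28 tested, 15 rose and 0 fell between P4 and E17.5, 18 rose and 2 fell between A6w and P4, and 21 rose and 3 fell in adult over E17.5 cortex. Kcna2, which encodes Kv1.2, a low-threshold channel of axons, had 12.3, 12.8, 14 and 21.7 CPM at E17.5, 24.5, 34.2, 36.8 and 41.6 CPM at P4, 223, 379, 383 and 404 CPM at A6w and 218, 296, 322 and 327 CPM at A18w. Its adult libraries all stood above its P4 libraries, and adult over E17.5 it was 20.8-fold higher (log2 fold change 4.38 ± 0.22, adjusted p = 2.33e-09). Its usual partner Kcna1 (Kv1.1) had 2.83, 3.75, 4.78 and 6.63 CPM at E17.5, 2.22, 5.86, 7.08 and 8.05 CPM at P4, 50.4, 92.2, 104 and 120 CPM at A6w and 46.2, 74.8, 84.7 and 93.8 CPM at A18w. Kcna1 did not pass between P4 and E17.5 (log2 fold change 0.30 ± 0.33, adjusted p = 0.505), and rose between A6w and P4 (log2 fold change 3.99 ± 0.35, adjusted p = 8.65e-07). Kcna4 (Kv1.4, an inactivating presynaptic channel) and Kcna6 (Kv1.6) rose at both steps, to adult over E17.5 values of 2.35 ± 0.22 and 1.52 ± 0.13 on the log2 scale (± SE). Kcna3 (Kv1.3) and Kcna5 (Kv1.5) did not pass adult over E17.5, at -0.59 ± 0.26 and 0.90 ± 0.43. Kcnb2, which encodes the delayed rectifier Kv2.2, rose in adult over E17.5 cortex by 0.86 ± 0.19.

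Kv3 genes encode channels that close quickly and let neurons, fast-spiking parvalbumin interneurons among them, fire at high rates. Kcnc1, Kcnc2 and Kcnc4 rose in adult over E17.5 cortex, from different starting levels. Kcnc1 (Kv3.1) had 47, 50.5, 57.7 and 68 CPM at E17.5, 59.5, 65.1, 71.6 and 73.7 CPM at P4, 158, 222, 236 and 254 CPM at A6w and 159, 221, 246 and 252 CPM at A18w. It did not pass between P4 and E17.5 (log2 fold change 0.29 ± 0.17, adjusted p = 0.2) and rose between A6w and P4 (log2 fold change 1.65 ± 0.17, adjusted p = 3.88e-06). Kcnc2 (Kv3.2) had 3.95, 4.49, 10.3 and 12.9 CPM at E17.5, 16.9, 22.1, 22.4 and 27.3 CPM at P4, 117, 128, 133 and 144 CPM at A6w and 97.6, 108, 141 and 143 CPM at A18w, and rose at both steps, by 1.5 ± 0.32 and then 2.54 ± 0.32 log2 units. Its higher E17.5 values were in the 2 libraries with more of the thalamic markers Tcf7l2 and Lef1, but less of Rorb and Prkcd. The part of thalamic tissue was not tested. The P4 rise of Kcnc2 passed without both of these libraries (2.38 ± 0.23, adjusted p = 6.39e-05) and without both of the others (0.93 ± 0.21, adjusted p = 0.0148). Kcnc4 (Kv3.4) had an adult over E17.5 log2 fold change of 3.53 ± 0.20. Pvalb, the calcium-binding protein that marks fast-spiking interneurons, had 0 to 0.715 CPM in the E17.5 and P4 libraries and 22.8 to 64.7 CPM in the adult ones. Its part in the Kv3 values was not tested.

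Kv4 genes (Kcnd) carry the dendritic A-type current, and 2 of the 3 rose between P4 and E17.5 without a further call. Kcnd2 (Kv4.2) had 27.2, 27.5, 42.1 and 45.1 CPM at E17.5, 76.3, 85.8, 90.3 and 112 CPM at P4, 81, 97.8, 109 and 132 CPM at A6w and 114, 120, 121 and 133 CPM at A18w. It rose between P4 and E17.5 (log2 fold change 1.37 ± 0.19, adjusted p = 0.000229) and did not pass between A6w and P4 (log2 fold change 0.18 ± 0.19, adjusted p = 0.447). Kcnd1 (Kv4.1) did likewise, at 1.18 ± 0.20 and then -0.06 ± 0.19 log2 units. Kcnd3 (Kv4.3) passed at neither step and had 56.3, 58, 60.6 and 69.7 CPM at E17.5, 59.8, 63.6, 72.9 and 78.1 CPM at P4, 66.6, 80.9, 86.7 and 108 CPM at A6w and 41.7, 53.2, 68.5 and 74.6 CPM at A18w, so its 16 cortex libraries overlapped across stages.

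Kcnq3 and Kcnq5 encode subunits of the M-channel, a slow brake on repeated firing. Kcnq3 had 90.1, 103, 135 and 145 CPM at E17.5, 122, 132, 161 and 173 CPM at P4, 221, 308, 323 and 330 CPM at A6w and 191, 229, 268 and 277 CPM at A18w, and rose adult over E17.5 by 1.15 ± 0.17 log2 units. Kcnq5 rose more, by 2.99 ± 0.17. Kcnq1, a heart and epithelial channel, stayed at or under 1.4 CPM in every cortex library.

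Among Kcnh genes, Kcnh1 (an EAG channel), Kcnh3 (an ELK channel) and Kcnh7 (an ERG channel) rose in adult over E17.5 cortex, by 3.79 ± 0.20, 3.60 ± 0.31 and 2.48 ± 0.20 log2 units. Kcnh5 rose by 2.76 ± 0.37, and Kcnh2, the ERG channel also known from cardiac repolarization, by 0.61 ± 0.12. Kcnh4 rose by 0.72 ± 0.26 at the lower level of 6.78 to 23.1 CPM, and Kcnh6 did not pass (0.69 ± 0.33). Kcnh8, another ELK channel, fell, and fell more than any other voltage-gated gene tested. It had 3.61, 5.6, 6.22 and 6.62 CPM at E17.5, 3, 3.02, 3.42 and 4.61 CPM at P4, 0.0363, 0.139, 0.255 and 0.447 CPM at A6w and 0.22, 0.258, 0.281 and 0.403 CPM at A18w. The E17.5 and P4 ranges both lay above every adult library, the fall came between A6w and P4 (log2 fold change -4.04 ± 0.47, adjusted p = 9.78e-06), and P4 over E17.5 did not pass (log2 fold change -0.62 ± 0.37, adjusted p = 0.207). Radial glia markers (Pax6, Sox2, Hes5, Nes, Fabp7) summed to 620 to 835 CPM at E17.5, 461 to 544 CPM at P4 and 61.3 to 101 CPM in adult libraries. They too were lower in adult libraries, and their part in the fall of Kcnh8, or in those of Kcnk10 and Kcnk5 below, was not tested. The upstream sequence of Kcnh8 above lies on chromosome 17 directly before its annotated start (chr17:52602709-52979194, plus strand).

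**Figure D3:**
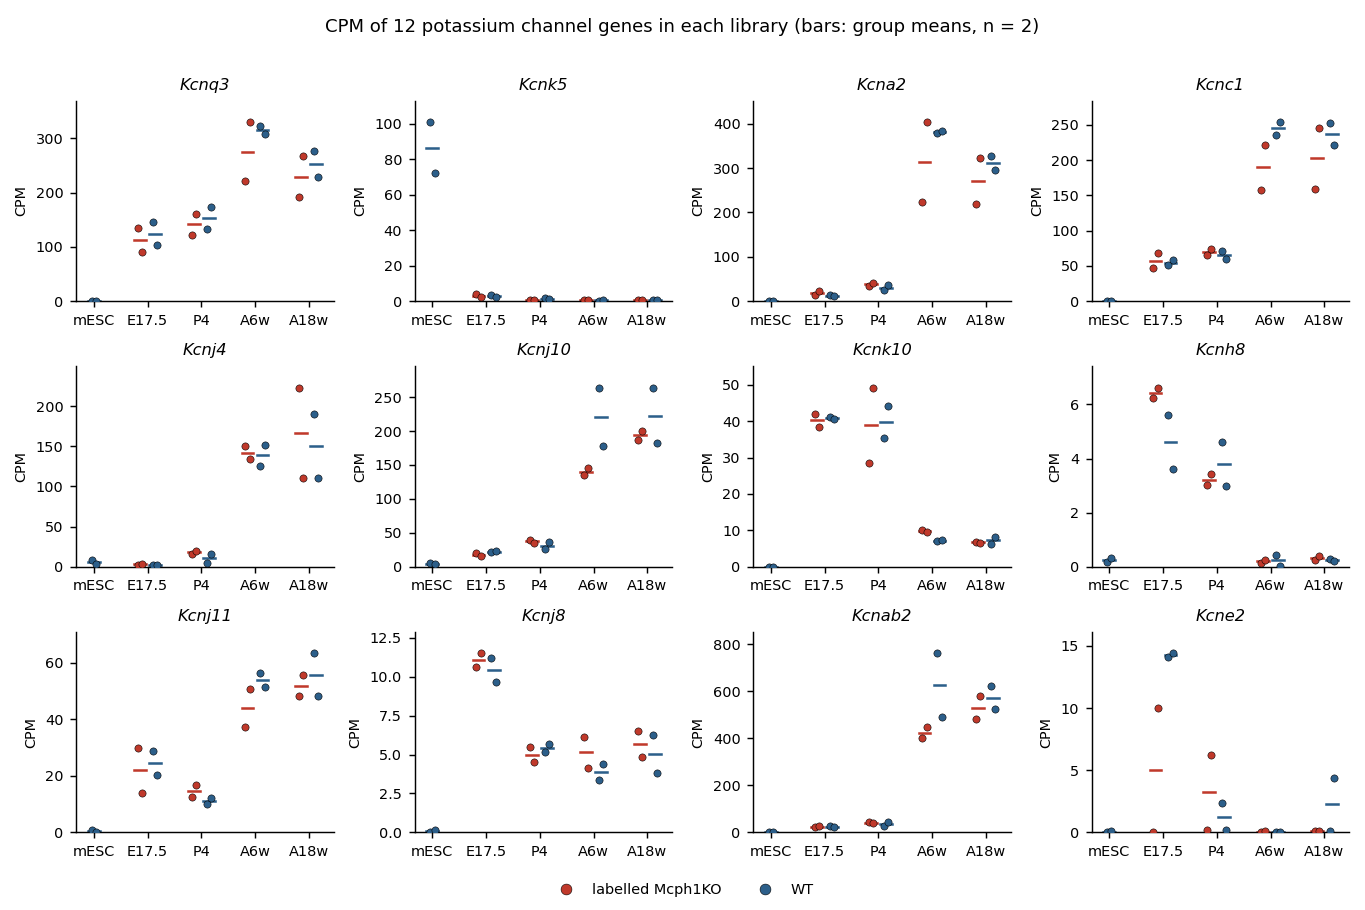
CPM (linear axes from 0, scaled per gene) of 12 Kcn genes in every library from mESC to A18w, with libraries labelled Mcph1KO in red, WT in blue and bars for means of 2 libraries. Kcna2, Kcnc1, Kcnj4, Kcnj10 and Kcnab2 stand highest in the adult stages, Kcnk10 and Kcnh8 at E17.5 and P4, Kcnj8 and Kcne2 at E17.5 and Kcnk5 in mESC, while Kcnj11 is lowest at P4 among the cortex stages.

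Most silent modifiers rose, as did the Kv2 gene Kcnb2. Of 9 tested, 5 rose between P4 and E17.5, 8 rose between A6w and P4 and 8 rose in adult over E17.5 cortex, with 0 lower calls at each step and medians of 1.15, 1.48 and 3.0 log2 units. Kcnf1 (Kv5.1), the highest of them per kilobase in adult cortex, had 14, 14.1, 15.8 and 21 CPM at E17.5, 18.8, 36, 50.7 and 58.8 CPM at P4, 118, 213, 225 and 287 CPM at A6w and 140, 141, 142 and 198 CPM at A18w (log2 fold change 3.46 ± 0.33, adjusted p = 6.85e-07). Kcnv1 (Kv8.1) had 14, 14.2, 14.9 and 15.4 CPM at E17.5, 17.8, 22.4, 42.7 and 47.2 CPM at P4, 94.3, 113, 160 and 169 CPM at A6w and 88.1, 105, 116 and 117 CPM at A18w (log2 fold change 3.0 ± 0.28, adjusted p = 4.92e-07). Both genes varied between the libraries of a stage, with the highest A6w library at 287 CPM against a lowest of 118 CPM for Kcnf1. Kcng4 (Kv6.4) showed the largest fold change of the class, from low counts. It had 0.0872, 0.116, 0.143 and 0.416 CPM at E17.5, 0.107, 0.162, 0.239 and 0.465 CPM at P4, 2.5, 4.41, 7.37 and 12.6 CPM at A6w and 5.59, 10.3, 11.3 and 11.5 CPM at A18w, so its E17.5 and P4 libraries were all at or under 0.465 CPM, and it was 42-fold higher in adult over E17.5 cortex (log2 fold change 5.39 ± 0.43, adjusted p = 1.16e-07). Kcns1, Kcns2 and Kcns3 (Kv9.1 to Kv9.3) rose by 3.59 ± 0.38, 2.73 ± 0.15 and 3.72 ± 0.32 log2 units, Kcng2 (Kv6.2) rose by 2.36 ± 0.42 and Kcng3 (Kv6.3) by 1.46 ± 0.37, and Kcng1 (Kv6.1) did not pass (log2 fold change 0.56 ± 0.26, adjusted p = 0.0679).

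Inward rectifiers held some of the largest adult rises of all Kcn genes, and also genes that fell. Of 14 tested, 7 rose and 2 fell between P4 and E17.5, 9 rose and 0 fell between A6w and P4, and 10 rose and 3 fell in adult over E17.5 cortex. Kcnj4 (Kir2.3), a strong rectifier of the neuronal membrane whose upstream sequence is given above (chr15:79483714-79505241, minus strand), had 2.21, 2.39, 2.64 and 3.83 CPM at E17.5, 4.29, 16, 16.4 and 20 CPM at P4, 126, 134, 150 and 152 CPM at A6w and 111, 111, 190 and 223 CPM at A18w. It was 53.5-fold higher in adult over E17.5 cortex (log2 fold change 5.74 ± 0.40, adjusted p = 3.24e-08), and 5.48 ± 0.37 on the log2 scale without both A18w libraries numbered 1, which held its highest adult values beside their high striatal markers. Kcnj9 (Kir3.3, a G protein-gated channel) had 3.55, 3.86, 4.47 and 5.65 CPM at E17.5, 6.73, 10.2, 13.4 and 19.7 CPM at P4, 160, 168, 188 and 199 CPM at A6w and 139, 141, 160 and 170 CPM at A18w, with every adult library above every P4 library. In adult over E17.5 cortex its log2 fold change was 5.22 ± 0.28 (adjusted p = 3.69e-09). Its partners Kcnj3 (Kir3.1) and Kcnj6 (Kir3.2) rose by 2.86 ± 0.21 and 3.18 ± 0.28 log2 units, while Kcnj5 (Kir3.4), the form known from the atrium, fell at low counts (-1.18 ± 0.34), and did not pass without both E17.5 libraries numbered 2 (-0.78 ± 0.43, adjusted p = 0.141). Kcnj2 (Kir2.1) and Kcnj12 (Kir2.2) rose by 1.76 ± 0.21 and 2.09 ± 0.27, and Kcnj14 (Kir2.4) rose by 1.65 ± 0.27 at levels of 0.581 to 3.48 CPM.

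Kcnj10 (Kir4.1), the channel with which astrocytes clear potassium, had 16, 19.7, 21.6 and 22.8 CPM at E17.5, 26, 35.3, 36.4 and 40.1 CPM at P4, 135, 145, 178 and 264 CPM at A6w and 182, 187, 200 and 263 CPM at A18w. Every stage up to A6w stood above the one before it (log2 fold change 0.79 ± 0.16, adjusted p = 0.00217 for P4 over E17.5, and log2 fold change 2.33 ± 0.16, adjusted p = 1.46e-07 for A6w over P4). Its gene lies at chr1:172341210-172374085, plus strand. Kcnj16 (Kir5.1), which forms mixed channels with Kcnj10, had 0.407, 0.667, 0.902 and 1.29 CPM at E17.5, 3.04, 5.39, 6.54 and 6.56 CPM at P4, 23.7, 26.4, 27 and 27.6 CPM at A6w and 21.5, 25.9, 28.6 and 29.3 CPM at A18w, and was 32-fold higher in adult over E17.5 cortex (log2 fold change 5.0 ± 0.31, adjusted p = 1.15e-08). Astrocyte markers (Aqp4, Gja1, Slc1a2, Aldh1l1, Gfap) summed to 189 to 355 CPM at E17.5, 492 to 783 CPM at P4, 3661 to 4698 CPM at A6w and 3018 to 3856 CPM at A18w, with none of the 5 at 0 in a cortex library. Most of the adult sum was Slc1a2, with means of 118, 301, 3452 and 3006 CPM over these stages. Aqp4 and Gfap also had higher means at each adult stage than at P4. Gja1 rose less (102, 129, 209 and 188 CPM), and Aldh1l1 was nearly level after P4 (33.1, 54.7, 55.3 and 56.4 CPM). The part of astrocytes in the values of Kcnj10 and Kcnj16 was not tested.

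The pore genes of the ATP-sensitive channel, which closes when ATP is plentiful, moved apart. Kcnj11 (Kir6.2, the neuronal pore) had 14, 20.2, 28.8 and 29.8 CPM at E17.5, 9.98, 12.1, 12.5 and 16.6 CPM at P4, 37.2, 50.6, 51.3 and 56.5 CPM at A6w and 48.2, 48.2, 55.5 and 63.3 CPM at A18w. It fell between P4 and E17.5 (log2 fold change -0.86 ± 0.22, adjusted p = 0.00829), and rose between A6w and P4 (log2 fold change 1.91 ± 0.22, adjusted p = 1e-05), so its lowest cortex stage was P4. Without both E17.5 libraries numbered 1 its fall at P4 did not pass (-0.41 ± 0.19, adjusted p = 0.169). Kcnj8 (Kir6.1, known from pericytes and vascular muscle) had 9.68, 10.6, 11.2 and 11.5 CPM at E17.5, 4.49, 5.15, 5.49 and 5.69 CPM at P4, 3.37, 4.16, 4.36 and 6.12 CPM at A6w and 3.83, 4.84, 6.27 and 6.53 CPM at A18w, with every E17.5 library above every later one. In adult over E17.5 cortex its log2 fold change was -1.16 ± 0.17 (adjusted p = 5.19e-05). Pericyte and smooth muscle markers (Pdgfrb, Rgs5, Vtn, Acta2) summed to 180 to 239 CPM at E17.5, 124 to 258 CPM at P4 and 190 to 265 CPM in adult libraries. Among them Pdgfrb, a receptor of pericytes, had 38.2 to 45.3 CPM at E17.5, 23.2 to 32.3 CPM at P4 and 18 to 25.3 CPM in adult libraries, with every E17.5 library above every later one as for Kcnj8, and fell in adult over E17.5 cortex (-0.95 ± 0.10). Acta2 and Vtn rose (1.4 ± 0.29 and 0.46 ± 0.17) and Rgs5 did not pass (0.22 ± 0.14). Meningeal markers (Dcn, Lum, Col1a2, Col3a1) summed to 271 to 530 CPM at E17.5, 173 to 323 CPM at P4 and at most 71.4 CPM in adult libraries, and the part of pericyte, smooth muscle or meningeal cells in the fall of Kcnj8 was not tested. Of the regulatory subunits in adult over E17.5 cortex, Abcc8, the partner of Kcnj11, rose (0.59 ± 0.23) and Abcc9, the partner of Kcnj8 in vessels, fell (-1.47 ± 0.19). In the E17.5 libraries numbered 1, Abcc8 had 23.5 and 24.2 CPM, within its adult range of 19.3 to 35.5 CPM. In those numbered 2 it had 12.5 and 10.6 CPM. Kcnj15 (Kir4.2) fell from levels already at or under 0.833 CPM (-3.19 ± 0.69).

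Two-pore channels exchanged members between stages. Of 10 tested, 5 rose and 1 fell between P4 and E17.5, 8 rose and 1 fell between A6w and P4, and 8 rose and 2 fell in adult over E17.5 cortex. The mechanosensitive TREK and TRAAK genes took 3 different courses. Kcnk2 (TREK-1) changed least, at 49.5, 50.7, 51.7 and 60.4 CPM at E17.5, 43.6, 53.1, 54.1 and 60.6 CPM at P4, 66.3, 69.1, 71.8 and 77.8 CPM at A6w and 67.6, 80.2, 100 and 113 CPM at A18w, with a small adult rise (log2 fold change 0.58 ± 0.13, adjusted p = 0.00171). Kcnk10 (TREK-2) fell between A6w and P4, having 38.5, 40.6, 41.1 and 42 CPM at E17.5, 28.5, 35.3, 44.2 and 49.2 CPM at P4, 6.98, 7.37, 9.63 and 10.2 CPM at A6w and 6.31, 6.64, 6.92 and 8.14 CPM at A18w (log2 fold change -2.24 ± 0.16, adjusted p = 1.87e-07). Its lowest E17.5 or P4 library, at 28.5 CPM, was above its highest adult one, at 10.2 CPM. Kcnk4 (TRAAK) had 0.435, 0.436, 0.833 and 0.931 CPM at E17.5, 3.57, 3.72, 4.6 and 4.85 CPM at P4, 15.1, 19.7, 21.7 and 23.8 CPM at A6w and 15.6, 19.7, 20.8 and 21.2 CPM at A18w, and was 29.5-fold higher in adult over E17.5 cortex (log2 fold change 4.88 ± 0.26, adjusted p = 2.97e-09). It shares 13.15% of its exon bases with Catsperz on the same strand, so some of its reads could belong to that gene. Kcnk1 (TWIK-1), the two-pore gene of highest adult level per kilobase (48.6 ± 6.56 CPM per kb at A6w), rose by 3.13 ± 0.20 log2 units. Kcnk9 and Kcnk3 (TASK-3 and TASK-1, acid-sensitive leaks) rose by 3.10 ± 0.23 and 2.0 ± 0.21, and Kcnk9 did so mainly before P4 (2.42 ± 0.23 between P4 and E17.5). Kcnk12 (THIK-2) rose by 2.63 ± 0.34, and Kcnk13 (THIK-1), a leak channel known from microglia, by 2.55 ± 0.20. Microglia markers (Cx3cr1, Csf1r, P2ry12, Tmem119) summed to 34.3 to 40.6 CPM at E17.5, 46.4 to 58.5 CPM at P4 and 155 to 231 CPM in adult libraries, and their part in the value was not tested.

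**Figure D4:**
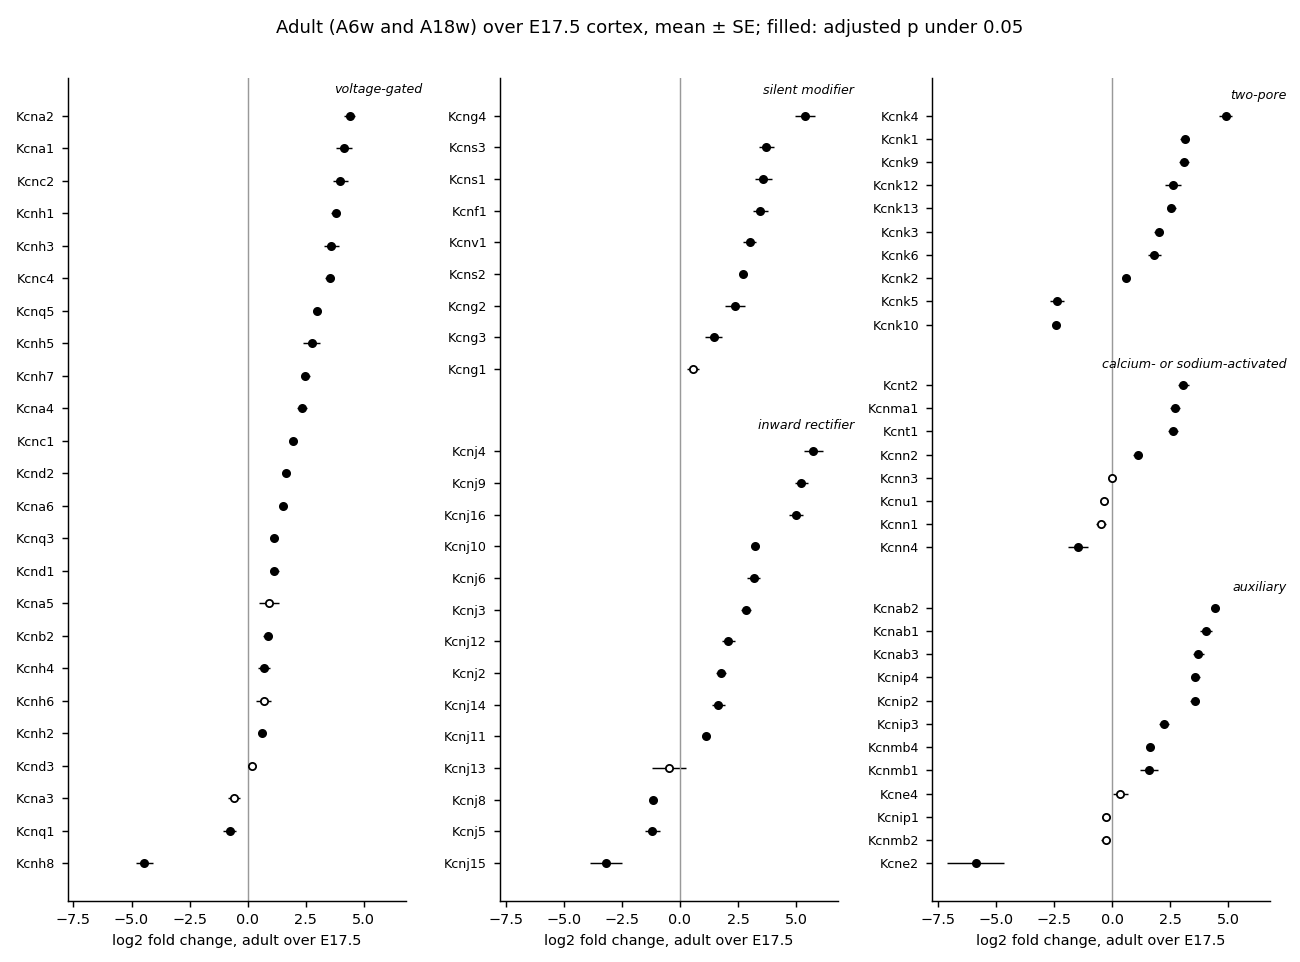
Log2 fold change of 77 of the 81 tested Kcn genes in adult (A6w and A18w) over E17.5 cortex on the horizontal axis, 1 point per gene with its standard error, grouped by class, and filled where the edgeR adjusted p is under 0.05. Most points lie right of 0, with Kcnj4 at 5.74 farthest right, and the 9 filled points left of 0 include Kcne2, Kcnh8, Kcnj15, Kcnk10 and Kcnk5.

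Of 8 calcium- or sodium-activated genes, 3 rose and 0 fell between P4 and E17.5, 5 rose and 2 fell between A6w and P4, and 4 rose and 1 fell in adult over E17.5 cortex. Kcnma1 (BK, the large-conductance channel opened by voltage and calcium together) had 32.3, 34.7, 54.4 and 57.6 CPM at E17.5, 115, 122, 141 and 144 CPM at P4, 294, 318, 384 and 407 CPM at A6w and 193, 242, 252 and 296 CPM at A18w (log2 fold change 2.69 ± 0.21, adjusted p = 8.17e-08). The 2 sodium-activated genes Kcnt1 and Kcnt2 rose with it, by 2.61 ± 0.22 and 3.06 ± 0.24 log2 units. The small-conductance genes, which contribute to the afterhyperpolarization, differed among themselves. Between A6w and P4, Kcnn2 (SK2) rose (log2 fold change 1.13 ± 0.20, adjusted p = 0.000325), Kcnn3 (SK3) rose (log2 fold change 0.38 ± 0.15, adjusted p = 0.0456) and Kcnn1 (SK1) did not pass (-0.18 ± 0.26). The A6w call of Kcnn3 was lost in 13 of the 16 fits that left out 1 library, all but those without P4 WT replicate 1, A6w WT replicate 1 or A6w Mcph1KO replicate 2 (log2 range 0.22 to 0.51). Kcnn1 and Kcnn3 did not pass adult over E17.5 (-0.49 ± 0.22 and 0.01 ± 0.13). Kcnn3 had 22, 22, 23 and 23.8 CPM at E17.5, 15.6, 17.8, 18.3 and 20 CPM at P4, 19.1, 20.7, 24.4 and 31.2 CPM at A6w and 20.5, 22.1, 23.5 and 24 CPM at A18w. Kcnu1 (SLO3, best known from sperm) fell between A6w and P4 (-0.50 ± 0.20) and did not pass adult over E17.5 (-0.35 ± 0.17), and its A6w call was lost on leaving out any 1 of 15 of the 16 libraries, all but P4 WT replicate 1 (log2 range -0.60 to -0.34). Kcnn4 (the intermediate-conductance channel) fell from levels already at or under 0.728 CPM (-1.47 ± 0.44).

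Most auxiliary subunits rose between E17.5 and the adult stages, as most pore genes did. Of 12 tested, 6 rose and 0 fell between P4 and E17.5, 8 rose and 3 fell between A6w and P4, and 8 rose and 1 fell in adult over E17.5 cortex. Kcnab2 (Kvβ2, which binds Kv1 channels and helps carry them to the axon) had 22.7, 24, 25.3 and 25.8 CPM at E17.5, 27.5, 38.3, 43 and 45.9 CPM at P4, 400, 448, 490 and 761 CPM at A6w and 481, 525, 580 and 621 CPM at A18w. The rise came mostly between A6w and P4 (log2 fold change 3.71 ± 0.19, adjusted p = 9.17e-09), and Kcnab2 had the highest level per kilobase of any Kcn gene at A6w (117 ± 36.1 CPM per kb) and at A18w (123 ± 13.8 CPM per kb). Oligodendrocyte markers (Mbp, Mog, Mag) summed to 26.5 to 33.2 CPM at E17.5, 37.2 to 61 CPM at P4 and 2136 to 5954 CPM in adult libraries, and their part in the value of Kcnab2 was not tested. Kcnab1 and Kcnab3 rose by 4.04 ± 0.26 and 3.70 ± 0.24 log2 units in adult over E17.5 cortex. The Kv4 partners split. Kcnip2, Kcnip3 and Kcnip4 (KChIP2 to KChIP4) rose by 3.55 ± 0.20, 2.23 ± 0.20 and 3.58 ± 0.19, while Kcnip1 (KChIP1) rose between P4 and E17.5 (0.53 ± 0.17), fell between A6w and P4 (-0.84 ± 0.18) and did not pass adult over E17.5 (-0.26 ± 0.15). The BK partner Kcnmb4 (β4, the neuronal form) rose by 1.63 ± 0.13. Over the 1367 exon bases of its protein-coding transcripts, it was among the 4 highest Kcn genes per kilobase at every cortex stage. The exons of all its transcripts together are longer, and over them its level per kilobase would be lower. Of these longer exons, Kcnmb4 shares 20.85% of the bases with an antisense transcript, and strand use in counting is not given in the sources used here. Kcnmb1, the smooth muscle form, rose at low counts (1.58 ± 0.40), and Kcnmb2 fell between A6w and P4 (-0.63 ± 0.23) without passing adult over E17.5 (-0.28 ± 0.20). The call of Kcnip1 at P4 and that of Kcnmb2 at A6w were each lost on leaving out any 1 of 6 libraries (log2 ranges 0.34 to 0.66 and -0.75 to -0.47). For Kcnip1 these were all 4 E17.5 libraries and replicate 1 of each genotype at P4. For Kcnmb2 they were all 4 A6w libraries and replicate 2 of each genotype at P4.

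Kcne2, a small subunit of epithelial and cardiac channels, had 0.0291 and 9.99 CPM in the E17.5 libraries labelled Mcph1KO, against 14.1 and 14.4 CPM in E17.5 WT. The library at 0.0291 CPM, which is 1 count, was the one whose choroid plexus markers summed to 4.1 CPM, and the A18w library at 4.4 CPM was the one whose markers summed to 699 CPM. The other 7 adult libraries had 0 to 0.14 CPM of Kcne2 and marker sums of 5.63 to 26.4 CPM. The adult over E17.5 fall of Kcne2 (log2 fold change -5.87 ± 1.22, adjusted p = 0.000753) did not pass without the replicate 2 library of E17.5 labelled Mcph1KO (-2.27 ± 2.77, adjusted p = 0.503). Kcnj13 (Kir7.1), a channel of choroid plexus and retinal epithelium, had 0.233 to 2.12 CPM at E17.5 and 5.76 CPM in that same A18w library. Of its exon bases, 49.06% overlap Gigyf2 on the opposite strand, whose mean count was 2109.8 against 34.1 for Kcnj13, so its reads cannot be told apart from those of Gigyf2 without strand.

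Genes that are not potassium channels but work with them were looked at by a fixed list of 17, of which 16 were tested. In adult over E17.5 cortex 10 rose and 4 fell, where 33.5% of all genes were called higher and 35.5% lower. Hcn2, a pacemaker channel, rose by 3.61 ± 0.29 log2 units, whereas Hcn3 and Hcn4 fell, at -1.62 ± 0.12 and -3.51 ± 0.26. The Kv4 partners Dpp6 and Dpp10 rose (1.52 ± 0.13 and 2.73 ± 0.18), as did Lgi1, a secreted protein that acts on Kv1 channels (2.98 ± 0.15), and Amigo1, a Kv2 partner (1.67 ± 0.08). Cntnap2 (Caspr2), which anchors Kv1 channels beside the node, rose little (0.36 ± 0.13) and its partner Cntn2 fell (-2.33 ± 0.18).

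Between the 2 adult stages no Kcn gene passed by edgeR among the genes kept by the low-count filter. There, 0 of the 81 were called in A18w over A6w cortex, where 0.135% of all genes (26) were called (0.104% higher, 0.0313% lower). Of the 81, 14 had an unadjusted p under 0.05, but the share of all genes at that threshold is not given here. That count is therefore not a result about Kcn genes. DESeq2 called 1, Kcnab1, also without a share of all genes given here. With replicate numbers added as a block, edgeR named 1, Kcnb2, lower at A18w (0.385% of all genes called). Without the low-count filter edgeR called 10 of 92, Kcnab1 and Kcnb2 among them, where 1.76% of all genes were called. Kcnab1 had 142 and 176 CPM in libraries labelled Mcph1KO and 138 and 225 CPM in WT libraries at A18w, against 74.3, 85.2, 90.3 and 120 CPM at A6w (log2 fold change 0.88 ± 0.24, adjusted p = 0.247). The higher A18w value of each genotype was in the library numbered 1, where striatal markers were also higher, and without both the log2 difference was 0.59 ± 0.27 (adjusted p = 1). Kcna5 moved the same way, with 2.77, 3, 10.7 and 13 CPM at A18w against 1.96, 2.6, 4.16 and 5.11 CPM at A6w (log2 fold change 1.17 ± 0.48, adjusted p = 0.489), and -0.19 ± 0.38 without the A18w libraries numbered 1. In order of unadjusted p, Kcnab1 was followed by Kcnk13 (0.70 ± 0.20), Kcnb2 (-0.62 ± 0.21), Kcng3 (-1.16 ± 0.39) and Kcnj6 (-0.79 ± 0.27), at edgeR adjusted p of 0.288 to 0.38. These 4 came before Kcna5.

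Most Kcn genes were higher in E17.5 WT cortex than in stem cells. Among those that were lower, the two-pore gene Kcnk5 had the highest level in stem cells. In a fit of the 10 WT libraries, 65 of 82 tested genes were higher in E17.5 WT cortex than in mESC and 7 were lower, where 68% of 19466 genes were called (35.3% higher, 32.7% lower). The median log2 fold change was 3.84, against 0.06 over all genes. Kcnk5 (TASK-2, a leak channel sensitive to extracellular pH, chr14:20140057-20181809, minus strand) had 3.3 and 2.19 CPM in E17.5 WT cortex, against 101 and 72 CPM in mESC (log2 fold change -5.01 ± 0.41, adjusted p = 2.2e-06). It was the first of the 92 genes per kilobase in mESC, at 25.5 ± 6.08 CPM per kb (SD, n = 2), ahead of Kcnk1 at 5.65 ± 1.23. It also fell further inside cortex, to 0.556 ± 0.289 CPM at A6w, against 2.91 ± 0.781 CPM at E17.5 (SD, n = 4 each). The other lower calls in E17.5 WT cortex were Kcns3 (-2.53 ± 0.51), Kcnk6 (-2.52 ± 0.47), Kcng4 (-1.83 ± 0.62), Kcnk4 (-1.55 ± 0.41), Kcnh6 (-1.33 ± 0.51) and Kcna7, which had 2 counts in E17.5 WT cortex against 82 in mESC, a 54.8-fold difference (95% interval 14.7 to 460, counting error only). The call of Kcnh6 was lost on leaving out either E17.5 WT library, either A18w WT library or mESC replicate 1 (log2 range -1.68 to -0.86), and that of Kcnk4 without E17.5 WT replicate 1 or mESC replicate 2 (-2.05 to -1.01). Kcns3, Kcng4, Kcnk4 and Kcnk6 were thus lower at E17.5 than in mESC and higher again in adult cortex than at E17.5.

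A total of 11 called genes had no count in either mESC library, and their folds are lower bounds against a floor of 3 counts over the group. Kcnd3 was at least 939-fold higher in E17.5 WT cortex, Kcnk10 at least 646-fold, Kcnip1 at least 344-fold, Kcnb2 at least 265-fold and Kcnk9 at least 123-fold. The other bounds ran from 83.1-fold for Kcna4 to 19-fold for Kcne4. The call of Kcnj13, one of the 11, was lost without mESC replicate 2. Among genes with 1 to 3 counts in mESC, Kcnc1 was 850-fold higher (95% interval 291 to 4124), Kcna2 597-fold (107 to 23626), Kcnd2 540-fold (184 to 2620) and Kcnv1 360-fold (99.3 to 2975), with intervals for counting error only. Kcnq3, with counts in both, had 145 and 103 CPM in E17.5 WT cortex, against 0.221 and 0.161 CPM in mESC (log2 fold change 9.28 ± 0.37, adjusted p = 3.11e-08). Kcnj4 (-1.25 ± 0.57), Kcnk1 (0.20 ± 0.34), Kcnd1 (-0.41 ± 0.31), Kcnj12 (-0.37 ± 0.35) and Kcnab3 (-0.41 ± 0.23) did not pass between these groups, each with counts on both sides. Kcnj14 (0.45 ± 0.56) did not pass either. Cultured stem cells and cortex tissue also differ in how they were obtained, and this cannot be told apart from cell type here.

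Between genotype labels no Kcn gene kept by the low-count filter passed at any stage. In libraries labelled Mcph1KO over WT averaged over the 4 stages, edgeR called 0 of 81 (0.0521% of all genes were called, 10 of 19199, with 0.0417% higher and 0.0104% lower), 3 had an unadjusted p under 0.05, and DESeq2 called 0. Called by neither tool, the 81 had 2, 0, 6 and 1 genes at an unadjusted p under 0.05 at E17.5, P4, A6w and A18w, where 0% of all genes were called by edgeR at each stage. The test that the genotype difference is the same at all 4 stages also called 0 by either tool, with 1 at an unadjusted p under 0.05, and 0% of all genes were called by edgeR. For these genotype tests, the share of all genes at an unadjusted p under 0.05 is not given here. Counts of Kcn genes at that threshold are therefore not a result about Kcn genes. Without the filter, edgeR called 1 of 92 Kcn genes on average, 0 at E17.5, 2 at P4, 2 at A6w, 2 at A18w and 4 in the test across stages, where 0.365%, 0.309%, 0.663%, 0.772%, 0.315% and 1.37% of all genes were called. The smallest p in the averaged comparison was that of Kcng4 (-1.10 ± 0.31, unadjusted p = 0.00373, adjusted p = 1). At A6w Kcng4 had 2.5 and 4.41 CPM in the libraries labelled Mcph1KO, against 12.6 and 7.37 CPM in WT, and at A18w it had 5.59 and 11.3 CPM in the libraries labelled Mcph1KO, against 11.5 and 10.3 CPM in WT. The A6w groups did not overlap, the A18w groups did, and no stage passed. Kcnab2 at A6w had 400 and 448 CPM in the libraries labelled Mcph1KO, against 761 and 490 CPM in WT (-0.55 ± 0.24, unadjusted p = 0.0353), where oligodendrocyte markers summed to 2407 and 2180 CPM in the libraries labelled Mcph1KO, against 3915 and 2136 CPM in WT and their part in this value was not tested. Kcnab3 at A6w had 27 and 50.5 CPM in the libraries labelled Mcph1KO, against 74.4 and 53.3 CPM in WT (-0.72 ± 0.32, unadjusted p = 0.0432). Neither pair of groups overlapped, and both genes were chosen here after their values were seen. With 2 libraries per group such a separation is common by chance, and the share of all genes that separate so is not given here. The separations of Kcng4, Kcnab2 and Kcnab3 at A6w are therefore not a result about these genes. In the averaged comparison Kcng4 was followed by Kcns3 (-0.54 ± 0.22), Kcnab3 (-0.39 ± 0.17), Kcnj10 (-0.22 ± 0.11), Kcnk6 (0.40 ± 0.20), Kcna5 (0.57 ± 0.34), Kcnj5 (-0.45 ± 0.29) and Kcnj2 (-0.22 ± 0.15), all at an adjusted p of 1.

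Pvalb stood in the same order at A6w, with 22.8 and 32.7 CPM in the libraries labelled Mcph1KO, against 46.3 and 47.9 CPM in WT. At A18w it had 39.4 and 46.8 CPM in the libraries labelled Mcph1KO, against 64.7 and 56.9 CPM in WT. One A6w library labelled Mcph1KO, replicate 1, was lowest of the 4 for Kcng4, Kcnab2, Kcnab3 and Pvalb. It was also lowest in the sum of all 92 Kcn genes, at 5251.5 CPM against 6812.2 to 7256.7 CPM in the other A6w libraries. Of the other interneuron markers, Gad1 and Gad2 were lowest there too, while Sst was not (196 CPM, against 167 to 208 CPM). Without this library the A6w differences were -1.17 ± 0.60 for Kcng4 and -0.33 ± 0.34 for Kcnab3, and the part of Pvalb cells in them was not tested. At A18w, Mcph1KO replicate 1 was likewise lowest of its stage for Kcng4 (5.59 CPM), Kcnab2 (481 CPM), Kcnab3 (46.5 CPM) and Pvalb (39.4 CPM). Its sum of all 92 Kcn genes, 5727.8 CPM, was also the lowest at A18w, while its Gad1 and Gad2 values were not. The A6w WT replicate 1 library, with the highest hippocampal sum, was highest of the 4 for Kcng4, Kcnab2, Kcnab3 and Kcnj10, and without it the differences were -1.09 ± 0.57, -0.20 ± 0.25, -0.46 ± 0.38 and -0.34 ± 0.24 in that order. The astrocyte gene Kcnj10 had 135 and 145 CPM in the libraries labelled Mcph1KO, against 264 and 178 CPM in WT at A6w (-0.65 ± 0.22, unadjusted p = 0.0119), and astrocyte markers summed to 3661 and 3760 CPM in the A6w libraries labelled Mcph1KO, against 4698 and 3997 CPM in WT. Most of that sum was Slc1a2 (2991 and 3329 CPM, against 3975 and 3511 CPM in WT). Aldh1l1 was lower as well, whereas Aqp4, Gja1 and Gfap overlapped between the labels. The part of astrocytes in this difference was not tested. At E17.5 Kcns3 had the smallest p, with 0.32 and 0.322 CPM in the libraries labelled Mcph1KO, against 0.696 and 1.11 CPM in WT (-1.47 ± 0.50, unadjusted p = 0.0114). At P4 it was Kcna1, with 7.08 and 8.05 CPM in the libraries labelled Mcph1KO, against 2.22 and 5.86 CPM in WT (0.91 ± 0.47, unadjusted p = 0.0764). At A18w it was Kcnq1, with 1.29 and 0.852 CPM in the libraries labelled Mcph1KO, against 0.281 and 0.396 CPM in WT (1.64 ± 0.50, unadjusted p = 0.00627). These are low counts, and Kcnq1 shares exon bases with Kcnq1ot1 on the opposite strand, whose mean count was 462.2 against 20.6 for Kcnq1. Next in order of p were Kcng3 (-1.29 ± 0.59) and Kcnk1 (-0.55 ± 0.29) at E17.5, Kcnk6 (0.79 ± 0.41) and Kcnk5 (-1.02 ± 0.54) at P4, and Kcnj5 (-1.27 ± 0.62) and Kcng3 (1.15 ± 0.57) at A18w. Kcnq1 also had the smallest p in the test across stages (unadjusted p = 0.0243, adjusted p = 1). With 2 libraries per group these intervals are wide, and a missed threshold does not show that the genotypes act alike.

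**Figure D5:**
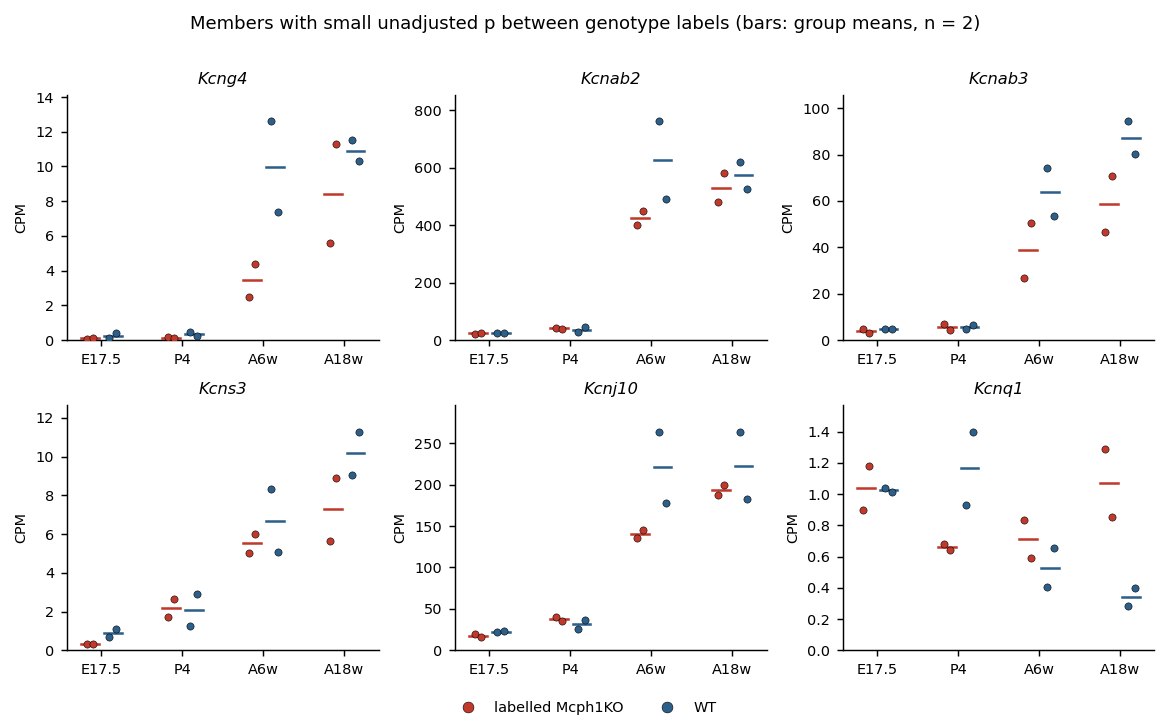
CPM (linear axes from 0) at the 4 cortex stages of the 6 Kcn genes that had small unadjusted p-values between genotype labels, with libraries labelled Mcph1KO in red left of WT in blue and bars for means of 2 libraries. Kcng4, Kcnab2, Kcnab3 and Kcnj10 stand lower in both A6w libraries labelled Mcph1KO than in both WT libraries. Kcnq1 stands higher in both A18w libraries labelled Mcph1KO. None of these differences passed the adjusted threshold, and a separation of 2 libraries from 2 is common by chance.

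The 11 genes left out of the cortex tests had low counts in every cortex library. They were Kcna7, Kcna10, Kcne1, Kcne3, Kcnj1, Kcnk7, Kcnk15, Kcnk16, Kcnk18, Kcnmb3 and Kcnv2, among them Kcnj1, a kidney channel, Kcnv2, a retinal modifier, and Kcne1, a partner of Kcnq1 in heart and inner ear. Their highest count in a cortex library ran from 2 for Kcnk18 to 11 for Kcne3, and Kcna7 reached 54 counts in mESC.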

How the data were processed

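RNA from mouse cerebral cortex and mESC was sequenced after an NEBNext Ultra library preparation, per the labels' protocols, which split each tissue homogenate between DNA and RNA. Per the submitters' processing notes, FastQC, Trimmomatic 0.39 and Salmon 1.4.0 were used with GRCm38.p6 (mm10). The authors deposited estimated counts per gene as whole numbers, and these expected counts were used as deposited. Strand handling is not given in the sources used here. Gene IDs without version were matched to GENCODE M21 (54107 of 54281 matched).

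Genes passing edgeR's filterByExpr (minimum count 10, total 15) were scaled by TMM and tested with edgeR 4.0.16 quasi-likelihood tests in R 4.3.3, with 1 mean per group. The 16 cortex libraries formed one fit and the 10 WT libraries another. P-values were adjusted by Benjamini-Hochberg over all genes of a fit, with a threshold of 0.05. Printed CPM were scaled over all 18 libraries, and levels per kilobase used merged exons of protein-coding transcripts. Shares of exon bases that overlap another gene used merged exons of all transcripts. Intervals for low counts are exact at 95% and, like floors of 3 counts, cover counting error only.

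Alternatives were DESeq2 1.42.0, RLE factors, no filter, a replicate block, other sets of libraries, each genotype alone and leaving out each library. Scaling by total count, and dropping the libraries numbered 1 or those numbered 2 at E17.5, or those numbered 1 at A18w, were chosen after seeing the data. Genes were named by fixed rules: the 8 largest called rises and falls with at least 1 CPM, the 2 highest per kilobase in a class, a list of known cortical channels, and for genotype the 8 (averaged) or 3 (per stage) of smallest p. Some genes are not reported here by name; they stay in counts and class sums and out of the marker sums. The genes, lists and rules were chosen with earlier results of these data known. The fitting steps were tested on simulated data. No library pair matched within sampling noise (chi-square per degree of freedom 20.8 to 89.4).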

Additional observations from a re-analysis of the deposited data

Results flagged for a closer look

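The summed level of the 15 auxiliary subunits was 1479 CPM in the A18w WT replicate 1 library, far from the other 3 A18w libraries relative to their spread. Of 28 such sums checked, chance alone would place about 1 in 20 this far out. In that library Kcnab1 had 225 CPM and Kcnab2 had 621 CPM, each the highest value at A18w. Oligodendrocyte markers (5954 CPM) and striatal markers (1292 CPM) were also highest there among all cortex libraries, and their part in the sum was not tested.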

How the results depend on the processing

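Counts of Kcn genes called stayed within 1.5 times of those reported under RLE factors, total-count scaling, the fit of all 18 libraries and the fit of only the libraries compared, and under the other alternatives save the following. Without a low-count filter 1 gene was called between genotypes on average (Kcng4), 2 at P4 (Kcnj4, Kcna1), 2 at A6w (Kcng4 among them), 2 at A18w (Kcne2, Kcnj13), 4 in the test across stages (Kcne2, Kcna1 and Kcnj13 among them) and 10 in A18w over A6w. In A18w over A6w cortex DESeq2 called 1 (Kcnab1, adjusted p = 0.0273) and the replicate block 1 (Kcnb2), against 0. For P4 over E17.5 cortex 26 were called from WT libraries alone and 26 without both E17.5 libraries numbered 1, against 44. Why these counts moved was not tested.

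Leaving out 1 library at a time gave 36 to 45 calls for P4 over E17.5, 56 to 62 for A6w over P4, 67 to 71 for adult over E17.5 and 66 to 75 for E17.5 WT cortex over mESC, and 0 for the other comparisons. Shares of all genes called in these fits are not given here. Among the genes named, only the genotype differences of Kcnk1 at E17.5 (range -0.98 to 0.04, the upper end without E17.5 WT replicate 2) and Kcnj13 at A18w (range -3.50 to 0.61, the upper end without A18w WT replicate 2) changed sign there, and neither was called. Total-count scaling moved the median of all genes to -0.28 for A6w over P4 and -0.30 for adult over E17.5, against -0.06 and -0.04 with TMM, and to 0.36 against 0.06 for E17.5 WT cortex over mESC, with no sign change of a called gene.

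Same-numbered libraries correlated at 0.478 (E17.5), 0.209 (P4), 0.0829 (A6w) and 0.295 (A18w) in their deviations over all genes, and the differences between numbers correlated across stages at -0.105 to 0.203. The labels do not say that a number marks a shared litter, batch or day, and a stage has only 2 numbers, so they were not taken as pairs. With the replicate block 45, 63, 70 and 71 Kcn genes were called in P4 over E17.5, A6w over P4, adult over E17.5 and E17.5 WT cortex over mESC, and 0 between genotypes. Shares of all genes called with the block in these comparisons are not given here. Genes under about 1 CPM rest on few reads, which limits their folds.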
